A study of Homo sapiens with 6 samples.

Results

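The 10 genes described here act around the mineralocorticoid receptor and were followed in HK2 cells, in which this receptor was overexpressed. They were the receptor itself (NR3C2), the glucocorticoid receptor (NR3C1), the ligand-gating enzyme HSD11B2, and 7 genes that steroid-bound receptors are known to induce directly in some cells (SGK1, TSC22D3, FKBP5, KLF9, CEBPD, ERRFI1 and EDN1). The genes were chosen by name, with earlier results of these data known. Each symbol matched 1 Ensembl identifier, so that 10 of the 37202 genes in the authors' deposited table are described.

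NR3C2 and NR3C1 are closely related nuclear receptors. Each waits in the cytoplasm in a complex with HSP90 and its co-chaperones, moves to the nucleus once a steroid is bound, and binds the same DNA element next to its target genes. Aldosterone activates the mineralocorticoid receptor in the distal nephron and so raises sodium reabsorption. Cortisol binds both receptors, and HSD11B2 protects the mineralocorticoid receptor by turning cortisol into inactive cortisone.

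Total RNA was sequenced from 3 libraries of NR3C2-OE cells, which received an NR3C2 overexpression plasmid with Lipofectamine 2000, and from 3 Control libraries. The labels give the Control genotype as normal and do not say whether those cells received an empty plasmid. They also do not give the plasmid's promoter, the time after transfection or any receptor ligand, and both groups grew in medium with fetal bovine serum. Nothing says that the libraries came from separate cultures, so every p-value reflects the spread among the 6 libraries alone, and part of that spread may be technical. HK2 is a continuously growing epithelial line from the proximal tubule of a human kidney. Estimated counts per library ran from 77737375 to 132533971. Of 9 markers of an epithelial line with values, 7 averaged at least 1 FPKM over the 6 libraries (fragments scaled by transcript length and library depth). These were KRT8, KRT18, EPCAM, CDH2, VIM, PAX8 and LHX1, with VIM the highest at 779 FPKM and CDH2 at 33.5 FPKM. CDH1 and PAX2 averaged only 0.12 and 0.097 FPKM. Among 10 proximal tubule markers with values only GGT1, PDZK1 and CDH6 averaged at least 1 FPKM. The transporter SLC34A1, the water channel AQP1 and the endocytic receptor CUBN stayed below that level in every library. Summed over the list, proximal tubule markers reached 159 to 186 FPKM in NR3C2-OE and 123 to 156 FPKM in Control. GGT1 made up much of this difference, with means of 53.9 FPKM in NR3C2-OE and 26.4 FPKM in Control. Its Control libraries ranged from 16.3 to 45.5 FPKM. CDH6 averaged 91.4 FPKM in NR3C2-OE and 80.4 FPKM in Control, and PDZK1 overlapped between the groups. Of the 16 listed markers only 10 had values, and LRP2 and HNF4A were among those without. No marker with values averaged 1 FPKM or more over the 6 libraries for the thick ascending limb and distal tubule, the collecting duct, podocytes or endothelium. The highest, AVPR2 of the collecting duct, averaged 1.04 FPKM in NR3C2-OE and 0.918 FPKM in Control. Of 4 leukocyte markers with values, only CD68 did, and the leukocyte sum was 24.9 to 31.4 FPKM in NR3C2-OE and 21.7 to 22.1 FPKM in Control. The fibroblast and mural sum was 21.9 to 24.2 FPKM in NR3C2-OE and 20.5 to 23.4 FPKM in Control, with LUM, COL1A1, RGS5 and DCN above 1 FPKM. The part of these marker differences in the results below was not tested.

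The promoters of the 3 targets whose NR3C2-OE and Control libraries did not overlap are shown first, because the values below turn on these genes, and they were picked after those values had been seen. Each is the stretch of 250 bases that ends just before an annotated RefSeq start (GRCh38.p14), read on the strand of the gene, with the letters TATAA within 40 bases of the start in capitals. They lie at chrX:107717063-107717312 (minus strand) for TSC22D3, chr6:134174867-134175116 (minus strand) for SGK1 and chr6:12290111-12290360 (plus strand) for EDN1, and they were chosen among the 10 windows of these 3 genes because they hold those letters. Of these 10 windows, 4 hold them and 6 do not.
TSC22D3: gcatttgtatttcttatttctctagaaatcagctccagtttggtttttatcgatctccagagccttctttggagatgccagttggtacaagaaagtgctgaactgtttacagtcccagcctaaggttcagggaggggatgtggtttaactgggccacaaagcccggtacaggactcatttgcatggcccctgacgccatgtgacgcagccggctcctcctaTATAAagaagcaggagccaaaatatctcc
SGK1: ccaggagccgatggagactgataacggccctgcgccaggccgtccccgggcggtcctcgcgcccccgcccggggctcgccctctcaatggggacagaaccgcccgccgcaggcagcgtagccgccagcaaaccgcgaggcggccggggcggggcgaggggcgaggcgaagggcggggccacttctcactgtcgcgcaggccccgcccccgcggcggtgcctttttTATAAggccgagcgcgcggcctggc
EDN1: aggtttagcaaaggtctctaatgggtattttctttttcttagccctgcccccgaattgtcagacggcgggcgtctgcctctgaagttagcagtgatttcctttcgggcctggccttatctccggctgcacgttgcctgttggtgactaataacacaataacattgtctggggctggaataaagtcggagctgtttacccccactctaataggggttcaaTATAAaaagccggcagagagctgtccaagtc
The TATAA letters begin 29, 25 and 31 bases before the start of TSC22D3, SGK1 and EDN1. They were searched on the gene's strand only and were present in 5 of the 25 windows of the 8 members with an entry (20%), and in 4.34% of all 35116 windows of this length. The palindromic element that both receptors bind, AGAACA followed after 3 bases by TGTTCT, was searched on both strands and was in 0 of the 25 windows, and in 1 of the 35116. The hexamer TGTTCT on either strand, which is part of the full element, was also in 0 of the 25 windows and in 12.4% of all windows. Windows of 1 gene can overlap, so these shares are a description, and they say only that the letters are not in these stretches.

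The 10 genes spanned a wide range of levels. Over all 6 libraries, mean FPKM was 70.7 for CEBPD, 60.2 for SGK1, 32.1 for ERRFI1, 20.2 for TSC22D3, 9.22 for EDN1, 8.52 for FKBP5, 7.49 for NR3C1, 7.31 for NR3C2, 0.76 for HSD11B2 and 0.51 for KLF9. In that order, neighbours did not overlap in their 6 values except EDN1 with FKBP5, NR3C1 with NR3C2, and HSD11B2 with KLF9. CEBPD lay at the 96.3 percentile of genes with any signal, and KLF9 at the 58.3 percentile.

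None of the 10 genes passed the test in NR3C2-OE against Control. In edgeR's quasi-likelihood test with Benjamini-Hochberg adjustment over 21509 genes, 0 of the 10 reached an adjusted p below 0.05, where 0.0279% of all genes tested did (0.0139% higher and 0.0139% lower). Without adjustment, 4 of the 10 had a p below 0.05, against 9.19% of all genes, and the DESeq2 Wald test called 3, against 1.99% of the 16484 genes it gave an adjusted p. FPKM values of the groups did not overlap for 4 of the 10 genes, against 16.0% of all genes (9.38% higher and 6.65% lower). These were the same 4 genes: NR3C2 and TSC22D3 lay higher in every NR3C2-OE library, and SGK1 and EDN1 lay lower in every NR3C2-OE library. The median log2 fold change was -0.01 over the 10 genes and 0.00071 over all genes, with 5 positive and 5 negative. Of the 7 targets, TSC22D3 thus lay on one side and SGK1 and EDN1 on the other. The 10 genes were chosen with earlier results of these data known, so their counts beside the shares of all genes are only a description.

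**Figure D1:**
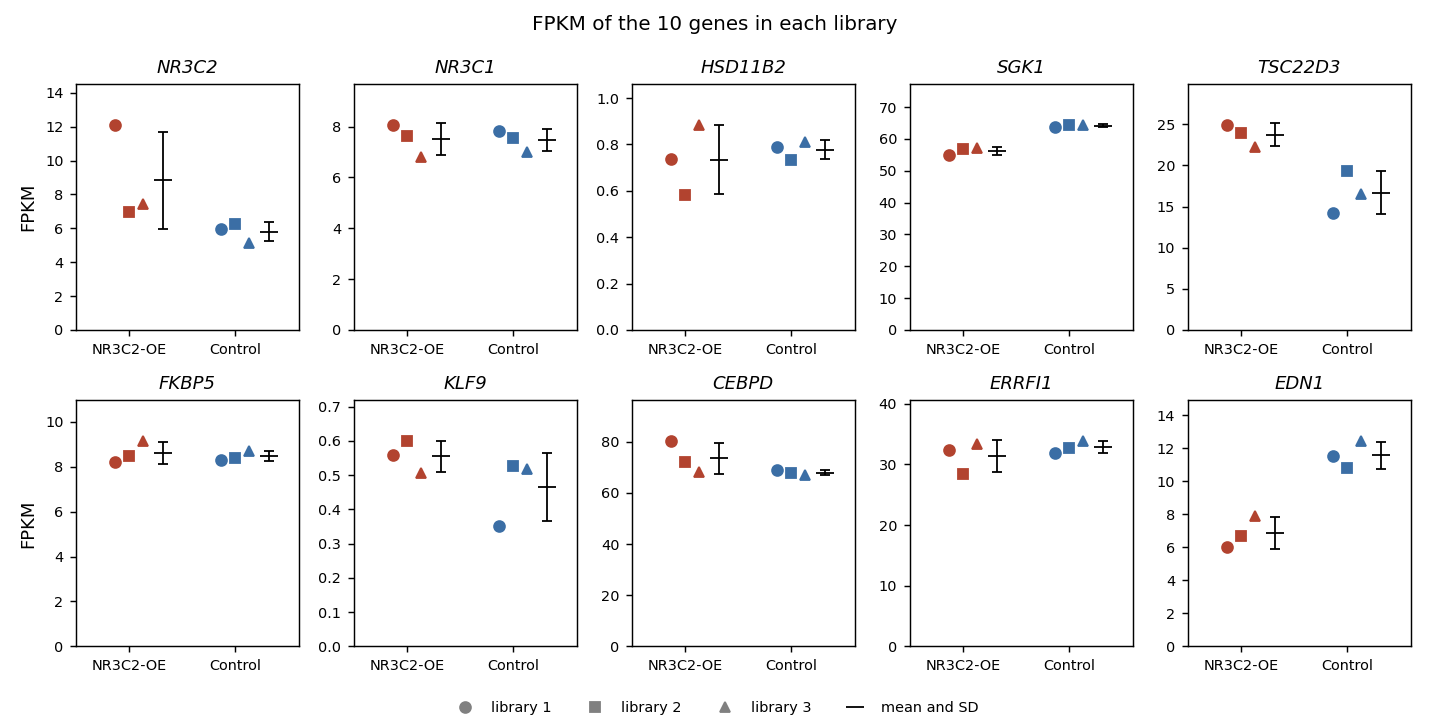
FPKM of the 10 genes (y axis, from 0, a scale of its own for each gene) in each NR3C2-OE and Control library, with the library number as the marker shape and the group mean with SD beside it. NR3C2 and TSC22D3 lie above, and SGK1 and EDN1 below, every Control value, while the other 6 genes overlap between the groups.

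The plasmid gene itself was only modestly higher, and unevenly so. NR3C2 (ENSG00000151623) had 12.1, 6.95 and 7.41 FPKM in NR3C2-OE libraries 1, 2 and 3, against 5.97, 6.26 and 5.16 FPKM in Control libraries 1, 2 and 3. Library 1 of NR3C2-OE stood far above the other libraries, and libraries 2 and 3 lay just above the highest Control value. Scaled by library depth alone (CPM), the picture was the same, with 74.8, 41.3 and 46.0 in NR3C2-OE and 33.6, 36.3 and 30.7 in Control. The fold change of the estimated counts was 1.6, with a 95% interval from 1.08 to 2.35 (log2 fold change 0.68, SE 0.23, edgeR adjusted p = 0.486). Without NR3C2-OE library 1 the log2 fold change was 0.36, and without Control library 1 or 3 the unadjusted edgeR p no longer lay below 0.05 (highest 0.0728). Transcripts of the plasmid and of the cells' own gene cannot be told apart in these values, nor can fewer strongly transfected cells and less RNA in each cell.

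The partner receptor showed no separation of the groups. NR3C1 (ENSG00000113580) had 8.08, 7.65 and 6.82 FPKM in NR3C2-OE and 7.84, 7.55 and 6.99 FPKM in Control, and the groups overlapped throughout. Its fold change was 0.97, with a 95% interval from 0.827 to 1.14 (edgeR adjusted p = 0.931). The sign of its log2 fold change of -0.04 turned positive on FPKM values, at 0.0080 with a pseudocount of 1. The ratio of NR3C2 to NR3C1 FPKM, which does not depend on the scaling of a library, was 1.5, 0.909 and 1.09 in NR3C2-OE libraries 1, 2 and 3, against 0.762, 0.83 and 0.738 in Control libraries 1, 2 and 3. NR3C2 was the more abundant receptor transcript in NR3C2-OE libraries 1 and 3 and the less abundant in the other 4 libraries. The mean ratio was 1.17 ± 0.303 in NR3C2-OE and 0.776 ± 0.0479 in Control (SD, n = 3 each). All NR3C2-OE ratios exceeded all Control ratios, and the two-sided exact permutation test of the log2 ratios gave p = 0.1, the smallest this design allows. The difference in mean log2 ratio was 0.56, and 0.36 without NR3C2-OE library 1. The summed FPKM of both receptors was 16.3 ± 3.34 in NR3C2-OE and 13.3 ± 0.959 in Control (SD, n = 3 each), with 20.2 in NR3C2-OE library 1.

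**Figure D2:**
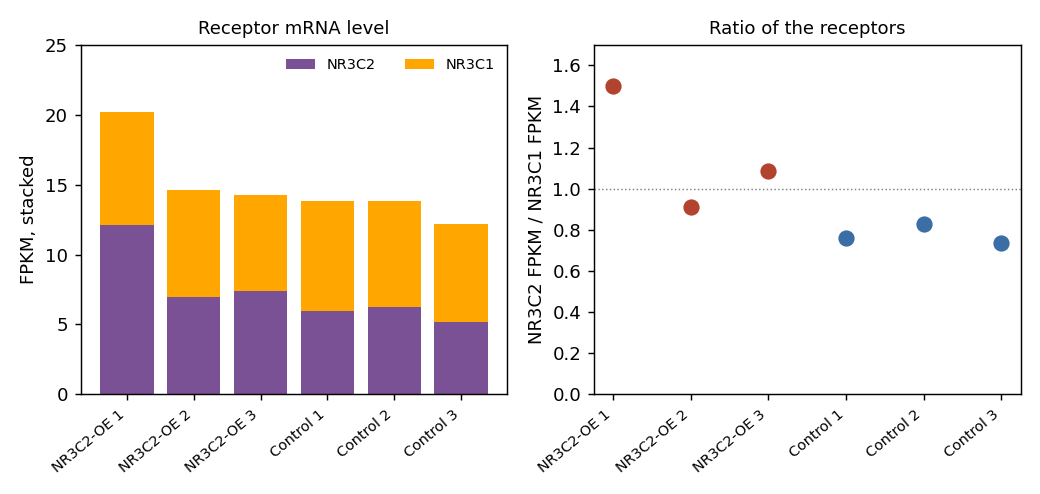
FPKM of NR3C2 and NR3C1, stacked (left, y axis from 0), and the ratio of NR3C2 to NR3C1 FPKM (right, dotted line at equal levels) in each of the 6 libraries. The ratio lies between 0.909 and 1.5 in NR3C2-OE and between 0.738 and 0.83 in Control.

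The enzyme that shields the mineralocorticoid receptor from cortisol was at a low level in both groups. HSD11B2 (ENSG00000176387) had 0.736, 0.584 and 0.885 FPKM in NR3C2-OE and 0.788, 0.733 and 0.811 FPKM in Control, from 83 to 161 estimated counts per library. Values overlapped, and the fold change of 0.983 had a wide 95% interval, from 0.761 to 1.27 (edgeR adjusted p = 0.976). HSD11B1, the enzyme that runs the reverse reaction, was too low to be tested. A gene on the opposite strand, AC009061.1, overlaps exons of HSD11B2 and averaged 0 FPKM in NR3C2-OE and 0.23 FPKM in Control. The libraries were strand-specific per the labels, but whether the counting used the strand is not given in the sources used here.

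TSC22D3 was the target that was higher in NR3C2-OE. It encodes the leucine zipper protein GILZ, which represses inflammatory transcription factors and, in mouse collecting duct cells, raises sodium channel activity. TSC22D3 (ENSG00000157514) had 24.95, 23.98 and 22.2 FPKM in NR3C2-OE libraries 1, 2 and 3, against 14.2, 19.4 and 16.5 FPKM in Control. Every NR3C2-OE value lay above every Control value, and the spread was wider in Control (coefficient of variation 15.6%) than in NR3C2-OE (5.84%). The fold change was 1.38, with a 95% interval from 1.14 to 1.66 (log2 fold change 0.46, SE 0.11, edgeR adjusted p = 0.349), and DESeq2 gave an adjusted p of 0.0345. With 1 library left out, the log2 fold change ran from 0.35 to 0.56 and the unadjusted edgeR p from 0.00229 to 0.0227. NCBP2L, which overlaps TSC22D3 on the opposite strand, averaged 0.0046 FPKM in NR3C2-OE and 0.011 FPKM in Control.

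SGK1 and EDN1 lay lower in NR3C2-OE. SGK1 encodes the kinase that blocks removal of the epithelial sodium channel from the cell surface by inhibiting the ubiquitin ligase NEDD4L. SGK1 (ENSG00000118515) had 54.9, 56.7 and 57.2 FPKM in NR3C2-OE libraries 1, 2 and 3, against 63.7, 64.4 and 64.4 FPKM in Control. The difference was small but each group was tight, with a coefficient of variation of 2.15% in NR3C2-OE and 0.633% in Control. The fold change was 0.854, with a 95% interval from 0.802 to 0.909 (log2 fold change -0.23, SE 0.038, edgeR adjusted p = 0.252), and DESeq2 gave an adjusted p of 0.00165. Its log2 fold change stayed between -0.24 and -0.21 in the 6 fits that left out 1 library.

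EDN1 lay furthest from Control of the 10 genes with all 6 libraries, although NR3C2 lay further (log2 fold change 0.84, against -0.75 for EDN1) without NR3C2-OE library 2. It encodes the precursor of endothelin 1, a vasoconstrictor peptide that lowers sodium reabsorption in the collecting duct, where aldosterone induces it in mouse cells. EDN1 (ENSG00000078401) had 5.998, 6.66 and 7.92 FPKM in NR3C2-OE libraries 1, 2 and 3, against 11.5, 10.8 and 12.4 FPKM in Control. The highest NR3C2-OE value lay below the lowest Control value, and the mean was 0.592 times that of Control. The fold change of the estimated counts was 0.583, with a 95% interval from 0.48 to 0.708 (log2 fold change -0.78, SE 0.12, edgeR adjusted p = 0.219). DESeq2 gave an adjusted p of 4.3e-06. By unadjusted edgeR p, EDN1 ranked 39 and SGK1 ranked 59 of 21509 genes, and neither was called. The log2 fold change of EDN1 ran from -0.89 to -0.70 with 1 library left out, and the edgeR adjusted p from 0.0928 to 0.455.

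**Figure D3:**
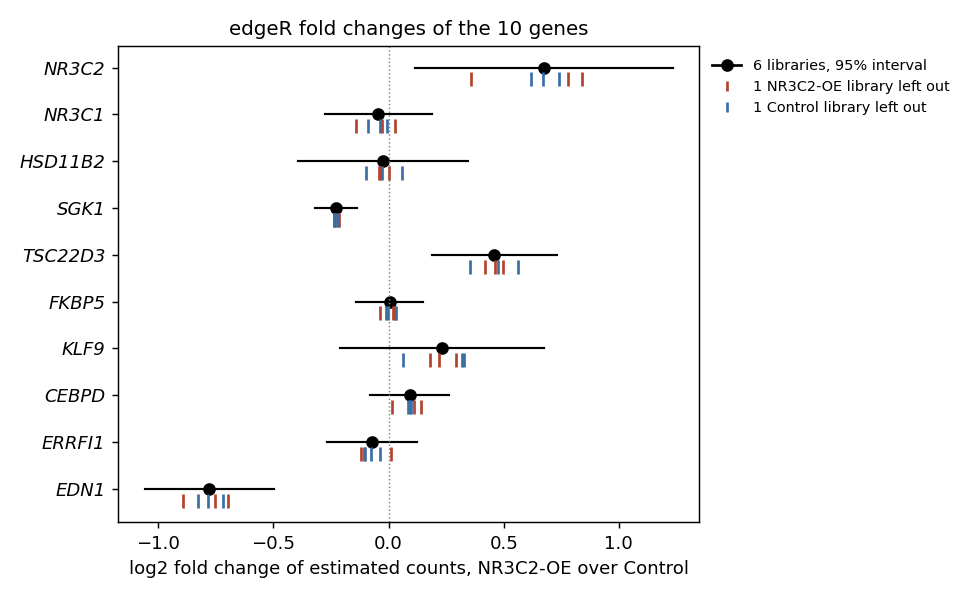
Log2 fold change of the estimated counts, NR3C2-OE over Control (x axis), for the 10 genes with 95% interval (black), and the values when 1 NR3C2-OE (red) or 1 Control (blue) library was left out. SGK1 and EDN1 stay below 0 and NR3C2 and TSC22D3 above 0 in all 6 such fits, and NR3C2 moves to 0.36 without NR3C2-OE library 1.

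The other 4 targets did not separate the groups. FKBP5, an HSP90 co-chaperone that lowers the hormone affinity of steroid receptors and is a widely used readout of their activity, had 8.21, 8.45 and 9.13 FPKM in NR3C2-OE and 8.27, 8.38 and 8.70 FPKM in Control. The values interleaved, and the fold change of 1.00 had a 95% interval from 0.907 to 1.11 (edgeR adjusted p = 0.989). Its log2 fold change of 0.0044 turned to -0.0064 without the filter on low counts.

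KLF9, a zinc finger transcription factor, was the least abundant of the 10 genes. It had 0.558, 0.599 and 0.507 FPKM in NR3C2-OE and 0.351, 0.526 and 0.518 FPKM in Control. Control library 1 was low and the other 5 values lay close together. The fold change was 1.17, with a 95% interval from 0.863 to 1.6 (edgeR adjusted p = 0.761), and the log2 fold change of 0.23 was 0.06 without Control library 1.

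CEBPD, a transcription factor of the acute phase response, had 80.2, 71.9 and 68.2 FPKM in NR3C2-OE and 68.7, 67.9 and 67.1 FPKM in Control. NR3C2-OE library 1 was the highest, and library 3 lay inside the Control range. The fold change was 1.07, with a 95% interval from 0.947 to 1.2 (edgeR adjusted p = 0.752), and the log2 fold change of 0.09 was 0.02 without NR3C2-OE library 1.

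ERRFI1, which encodes the feedback inhibitor MIG6 of the epidermal growth factor receptor, had 32.4, 28.3 and 33.4 FPKM in NR3C2-OE and 31.9, 32.7 and 33.8 FPKM in Control. NR3C2-OE library 2 was the lowest, and the other values overlapped. The fold change was 0.952, with a 95% interval from 0.831 to 1.09 (edgeR adjusted p = 0.846), and the log2 fold change of -0.07 was 0.0086 without NR3C2-OE library 2. The antisense gene AL034417.4 overlaps ERRFI1 and averaged 0.21 FPKM in NR3C2-OE and 0.12 FPKM in Control.

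NR3C2-OE library 1 had the most NR3C2. In FPKM it also had the highest TSC22D3, CEBPD and NR3C1 and the lowest SGK1, EDN1 and FKBP5 of the 3 NR3C2-OE libraries. For HSD11B2, KLF9 and ERRFI1 it lay between libraries 2 and 3. Libraries 2 and 3 did not keep the order of NR3C2, since library 3 had more NR3C2 than library 2 but less TSC22D3 and more EDN1. Among 3 libraries a given library is often at an end, and a relation to the NR3C2 level was not tested. Estimated counts and FPKM can change by different amounts for a gene with several transcripts. For NR3C2, TSC22D3, SGK1 and EDN1 the ratios of the group means stayed close. In CPM, the NR3C2-OE mean was 1.61 times the Control mean for NR3C2, 1.39 times for TSC22D3, 0.864 times for SGK1 and 0.59 times for EDN1. In FPKM it was 1.52, 1.42, 0.877 and 0.592 times. For HSD11B2 the measures ordered the libraries differently, since NR3C2-OE library 2 had the lowest FPKM (0.584) but the highest CPM (1.119) of its group.

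A wider list of 36 genes that either receptor is known to induce, without the 10 above, also held genes on either side. Of its 30 tested genes, 0 passed edgeR's test over all genes. At an unadjusted p below 0.05 stood 11 of them, 4 higher and 7 lower. DESeq2 called 4, against 1.99% of its genes. Over all tested genes, 4.43% were higher and 4.76% lower at that unadjusted threshold. The median log2 fold change was -0.01, with 14 positive and 16 negative. DUSP1, a phosphatase that inactivates MAP kinases, averaged 43.7 ± 1.21 FPKM in NR3C2-OE and 58.6 ± 3.33 FPKM in Control (SD, n = 3 each). Its log2 fold change was -0.44 (SE 0.055, edgeR adjusted p = 0.138). The stress gene GADD45A averaged 46.6 ± 2.48 FPKM in NR3C2-OE and 62.3 ± 1.79 FPKM in Control (log2 fold change -0.39, SE 0.067, edgeR adjusted p = 0.252).

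Genes of aldosterone-regulated sodium and potassium transport had more positive than negative fold changes and no call. Of 21 listed genes, 17 were tested and 0 passed edgeR's test over all genes. Without adjustment 2 did, both higher, where 4.43% of all genes were higher. DESeq2 called 0, against 1.99% of its genes. The median log2 fold change was 0.11, against 0.00071 over all genes, with 13 positive and 4 negative. SCNN1A, SLC12A3 and NEDD4L had positive log2 fold changes in the estimated counts but a lower mean FPKM in NR3C2-OE than in Control. The other tested genes kept their direction in mean FPKM. KCNMA1, a large-conductance potassium channel, averaged 25.6 ± 1.45 FPKM in NR3C2-OE and 23.4 ± 1.38 FPKM in Control (log2 fold change 0.18, SE 0.045, edgeR adjusted p = 0.36). FXYD2, a regulatory subunit of the sodium pump, averaged 59.6 ± 6.51 FPKM in NR3C2-OE and 51.4 ± 3.39 FPKM in Control. Of the genes named for their role and not by p, the ligase NEDD4L, a substrate of SGK1, averaged 33.0 FPKM in NR3C2-OE and 33.2 FPKM in Control, and the kinase WNK1 averaged 25.2 FPKM in NR3C2-OE and 24.9 FPKM in Control.

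The list of other steroid receptors and steroid enzymes held no call. Of 16 listed receptor and enzyme genes, 9 were tested and 0 passed edgeR's test over all genes. Without adjustment 1 did, against 9.19% of all genes, and DESeq2 called 0, against 1.99%. The estrogen receptor ESR1 was at a very low level and averaged 0.077 FPKM in NR3C2-OE and 0.097 FPKM in Control. The steroid dehydrogenase HSD17B11 had the smallest p, with 50.6, 53.5 and 40.7 FPKM in NR3C2-OE and 36.8, 35.7 and 37.3 FPKM in Control (log2 fold change 0.36, SE 0.094, edgeR adjusted p = 0.371). The list had a median log2 fold change of 0.12, with 7 positive and 2 negative.

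Around EDN1 and ERRFI1, the list of endothelin and epidermal growth factor receptor genes had 12 tested genes, of which 0 passed edgeR's test over all genes. Without adjustment 2 did, both lower, where 4.76% of all genes were lower. The DESeq2 test called 1, against 1.99% of its genes. The median log2 fold change was 0.03. HBEGF, a ligand of the epidermal growth factor receptor, had 27.6, 28.1 and 32.4 FPKM in NR3C2-OE and 40.3, 42.0 and 41.5 FPKM in Control (log2 fold change -0.51, SE 0.069, edgeR adjusted p = 0.184). The ligand EREG averaged 11.3 ± 0.853 FPKM in NR3C2-OE and 12.5 ± 0.201 FPKM in Control. EGFR, the receptor that ERRFI1 restrains, had 21.3, 29.3 and 26.3 FPKM in NR3C2-OE and 19.4, 19.6 and 20.7 FPKM in Control. In the estimated counts its difference was smaller than in these FPKM values (log2 fold change 0.13, SE 0.059, edgeR adjusted p = 0.574). The converting enzyme ECE1, named for its role, averaged 41.2 FPKM in NR3C2-OE and 40.6 FPKM in Control, and the endothelin receptor EDNRA averaged 0.11 FPKM in both groups.

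The list of HSP90 co-chaperones and of relatives of KLF9, CEBPD, SGK1 and TSC22D3 held the only gene of the 5 lists that edgeR called. All 23 genes were tested and 1 was called lower in edgeR's test with adjustment over all genes, where 0.0139% of all genes were called lower. The list was drawn up with earlier results of these data known. Without adjustment 7 passed, 1 higher and 6 lower, where 4.43% of all genes were higher and 4.76% lower. The DESeq2 test called 3, against 1.99% of its genes. PTGES3, the co-chaperone p23 that holds steroid receptors in their hormone-binding state, fell to 121, 105 and 107 FPKM in NR3C2-OE, against 190, 197 and 205 FPKM in Control (log2 fold change -0.91, SE 0.067, edgeR adjusted p = 0.0319). This call was lost without NR3C2-OE library 3 or any 1 Control library, with an edgeR adjusted p of up to 0.0965, although the log2 fold change stayed between -0.98 and -0.86. It was also lost in limma-trend on log2(FPKM + 1), with an adjusted p of 0.0522, and with the library number as a block in edgeR (adjusted p = 0.53). HSP90AB1 averaged 647 ± 13.3 FPKM in NR3C2-OE and 732 ± 17.5 FPKM in Control (log2 fold change -0.20, edgeR adjusted p = 0.263). HSP90AA1 averaged 380 ± 11.1 FPKM in NR3C2-OE and 427 ± 4.45 FPKM in Control (log2 fold change -0.19, edgeR adjusted p = 0.264). The log2 fold changes of TSC22D1, a relative of TSC22D3, and of CEBPB, a relative of CEBPD, were 0.21 (SE 0.062) and 0.22 (SE 0.093), and those of SGK2 and SGK3 were 0.01 and -0.06. These 4 were named for their family. CEBPB had the highest log2 fold change of the list, and TSC22D1 was the 1 gene higher without adjustment. The other listed relatives of TSC22D3 and CEBPD had log2 fold changes of 0.05 (TSC22D2), 0.11 (TSC22D4), -0.03 (CEBPA), 0.01 (CEBPG) and -0.12 (CEBPZ). PTGES3, HSP90AA1 and HSP90AB1 have processed pseudogenes, and how the authors' counting shared reads between such copies is not given in the sources used here. The list's median log2 fold change was -0.03, with 10 positive and 13 negative.

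**Figure D4:**
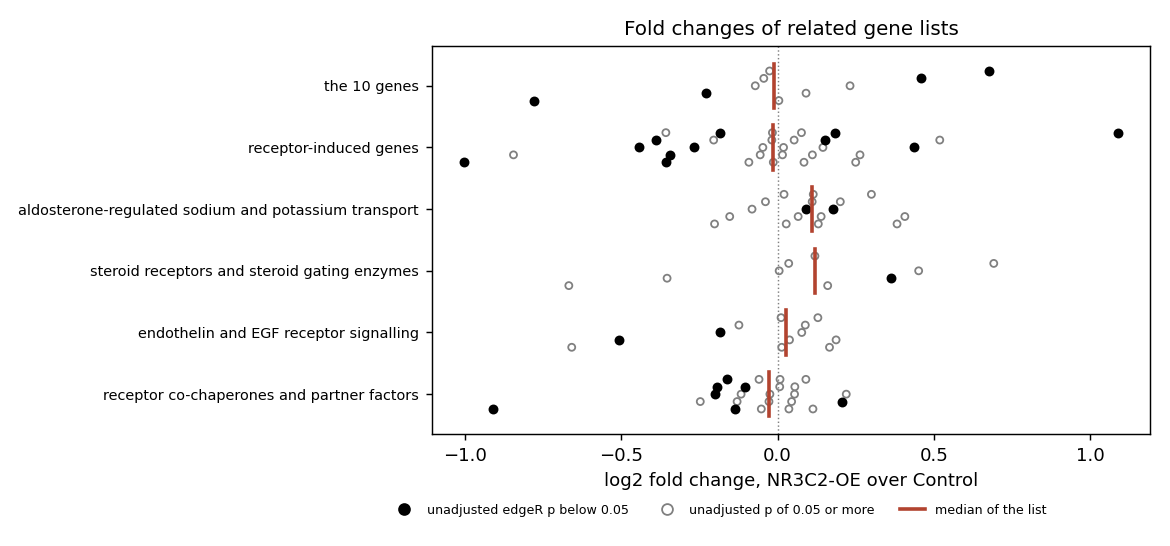
Log2 fold change of the estimated counts, NR3C2-OE over Control (x axis), for each tested gene of the 10 genes and of the 5 related lists (rows, with points spread vertically for legibility). Filled points have an unadjusted edgeR p below 0.05, and the red line is the list's median, between -0.03 and 0.12 in every row.

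Genes were also picked for a pattern over the 6 libraries most like that of NR3C2, which peaked in NR3C2-OE library 1. A high value in that library is thus part of the pick and not a separate result. Likeness was the root mean square difference of log2(FPKM + 1), centred over the 6 libraries, among 13019 other genes averaging at least 1 FPKM. The 5 closest were STIMATE-MUSTN1 (0.105), a readthrough gene that shares exons with its neighbours, the kinase RIOK3 (0.109), the deadenylase subunit CNOT6L (0.115), the immune receptor CD40 (0.123) and the splicing factor SRSF4 (0.13). RIOK3 had 15.2, 9.36 and 9.56 FPKM in NR3C2-OE and 8.60, 8.29 and 8.50 FPKM in Control. CD40 had 109, 62.1 and 64.7 FPKM in NR3C2-OE and 59.6, 60.6 and 61.4 FPKM in Control, yet its log2 fold change in the estimated counts was 0.10 (edgeR adjusted p = 0.85). None of the 5 was called by edgeR (adjusted p from 0.477 to 0.85).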

How the data were processed

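RNA was measured in 3 NR3C2-OE and 3 Control libraries by strand-specific paired-end sequencing, per the labels. The submitters' processing notes name cutadapt 1.2.1; for the aligner, counting program, genome build and annotation, this is not given in the sources used here. The authors deposited an FPKM value and an estimated count, as whole numbers, per gene and library. Among low estimated counts, 4 was more frequent (8694 values) than 3 (5772) or 5 (5504), so what 1 count stands for is unsure, and counts divided by 4 were an alternative. Symbols came from Ensembl identifiers, of which all 36466 matched.

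Estimated counts were tested with glmQLFit and glmQLFTest of edgeR 4.0.16 (R 4.3.3) after filterByExpr and TMM scaling, with group as the only term, over all 21509 genes passing the filter, and called at a two-sided Benjamini-Hochberg adjusted p below 0.05. All 10 genes passed the filter. A standard error is the log2 fold change over the square root of F, and 95% intervals used the residual and prior degrees of freedom together. The steps were tested on simulated data. Alternatives used DESeq2 1.42.0 and limma 3.58.1. The members and gene lists were chosen with earlier results of these data known. Named list genes are the 3 with the smallest p per list, the 5 most like NR3C2, and those said to be named for their role or family, picked after their values were seen. Some genes that this rule names are not reported here. Promoter sequences are RefSeq's (GRCh38.p14), with entries for 8 of the 10 genes.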

Additional observations from a re-analysis of the deposited data

How the results depend on the processing

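No member was called under any alternative except the DESeq2 Wald test, which called 3: SGK1 (log2 fold change -0.23), TSC22D3 (0.46) and EDN1 (-0.78). Over all genes, the 6 edgeR calls became 328 with DESeq2, 11 with limma-trend on log2(FPKM + 0.1), 0 with the replicate block, and 5 to 18 with 1 library left out. Same-numbered libraries did not deviate together (correlations of 0.0038 to 0.027, and not every library matched its own number best), so the numbers were not taken as pairs. DESeq2 called 4 receptor-induced genes, 1 endothelin and growth factor gene and 3 co-chaperone list genes. That last list had 0 calls on log2(FPKM + 1) and with the replicate block, and 0 to 1 with 1 library left out. Its edgeR call, PTGES3, had an adjusted p of 0.53 with the replicate block, and of 0.0224 to 0.0965 with 1 library left out. The ratio of NR3C2 to NR3C1 differed by 0.56 on the log2 scale, and by 0.36 to 0.72 with 1 library left out. With the replicate block this ratio differed by 0.56 (exact sign-flip p = 0.25, the smallest that 3 differences allow).

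Signs turned only for genes near 0: NR3C1 on log2(FPKM + 1) and log2(FPKM + 0.1) (0.0080 and 0.0087), FKBP5 without the filter (-0.0064), and, with 1 library left out, NR3C1 (-0.14 to 0.029), HSD11B2 (-0.099 to 0.059), FKBP5 (-0.039 to 0.031) and ERRFI1 (-0.12 to 0.0086). The cause was not tested. The low counts of HSD11B2 (83 to 161) and the spread of NR3C2 limit what their folds can show.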
